A study of Mus musculus with 10 samples.

Results

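The genes described here encode the proteins of the mitochondrial ribosome, taken as every row of the count files whose name is Mrpl (large subunit) or Mrps (small subunit) followed by a number and at most 1 letter, with pseudogene rows left out. The rule found 78 of 55809 gene rows. Their messenger RNA was measured by bulk RNA-seq of Treg cells from the spleen and lymph nodes of 10 mice. All 10 mice carried Foxp3-AID, the endogenous Foxp3 locus modified so that its protein carries an auxin-inducible degron, with ZsGreen and Cre recombinase made from the same allele, and all received the auxin analog 5-ph-IAA for 14 days. In the 6 R26-TIR1(F74G) mice the ROSA26 allele encoded TIR1(F74G), a mutated plant E3 ligase subunit that binds 5-ph-IAA and directs the fusion protein to degradation, and an mCherry reporter. Its expression required removal of a STOP cassette by the Cre of the Foxp3 allele, so that it was restricted to cells that had expressed Foxp3. The 4 R26-WT mice lacked TIR1 and kept Foxp3 protein. The labels give each library its own mouse number. They state no age, and folder names in the file headers refer to males. The sort gate may have differed between the groups by mCherry, and that difference cannot be told apart from genotype.

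Mitochondria make a small set of proteins on their own ribosomes, all of them core subunits of the respiratory chain or of ATP synthase. The RNA of these ribosomes is transcribed from mitochondrial DNA, whereas all of their proteins are encoded in the nucleus, made on cytosolic ribosomes and imported. Some of the proteins have homologues in bacterial ribosomes and others exist only in mitochondria. T cells raise mitochondrial protein synthesis when they are activated and divide, and Treg cells rely on mitochondrial respiration. The comparison of the groups asks whether messenger RNA for this machinery differed after Foxp3 protein had been depleted.

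The promoters of the members are shown first as background on these genes, and whether a motif goes with the values of a member was not tested. RefSeq promoter windows (build GRCm38.p6, 250 bases before to 50 bases after the start) were matched by symbol for 69 of the 78 members and gave 75 windows. In these windows 4 short motifs were searched on both strands, namely GCGCATG for NRF1, CCGGAAG for ETS factors such as GABP, AAGATGG for YY1 and CACGTG for the E-box bound by MYC. The factors are known regulators of nuclear genes for mitochondria or of cell growth. The ETS letters were in 26 of the 75 windows (34.7%), against 8.91% of all 32544 RefSeq windows of the same length. YY1 letters were in 13 (17.3%, against 6.37%), NRF1 letters in 8 (10.7%, against 3.93%) and E-box letters in 7 (9.33%, against 7.17%). Some members have several windows. By member, ETS letters were in 26 of 69, YY1 letters in 13, NRF1 letters in 8 and E-box letters in 5. At least 1 of the 4 motifs was in 42 windows (56%), against 23.0% of all windows. NRF1 matches on opposite strands can overlap, since GCGCATGCGC holds the letters on both. A match is a description of letters and no evidence of binding. Below are the 120 bases before the start of 5 members, shown as examples that together, but not each alone, hold the 4 motifs, with matches in capitals.
Mrpl22, chr11:58171544-58171663, plus strand, ETS and NRF1 letters: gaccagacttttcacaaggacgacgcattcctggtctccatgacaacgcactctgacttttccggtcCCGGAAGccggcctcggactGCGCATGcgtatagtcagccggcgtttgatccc
Mrpl36, chr13:73330889-73331008, plus strand, E-box and YY1 letters: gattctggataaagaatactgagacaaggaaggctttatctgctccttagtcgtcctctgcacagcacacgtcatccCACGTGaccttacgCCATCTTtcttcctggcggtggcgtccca
Mrpl52, chr14:54426789-54426908, plus strand, YY1 and ETS letters: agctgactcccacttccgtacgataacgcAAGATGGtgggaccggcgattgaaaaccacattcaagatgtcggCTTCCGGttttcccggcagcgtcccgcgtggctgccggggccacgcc
Mrpl32, chr13:14613038-14613157, minus strand, NRF1 letters at 4 positions: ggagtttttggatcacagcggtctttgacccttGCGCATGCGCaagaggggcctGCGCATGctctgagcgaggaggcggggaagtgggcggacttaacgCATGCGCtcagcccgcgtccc
Mrps27, chr13:99344666-99344785, plus strand, ETS letters: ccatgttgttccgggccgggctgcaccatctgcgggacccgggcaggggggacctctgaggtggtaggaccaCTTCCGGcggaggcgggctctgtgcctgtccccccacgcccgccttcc

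Libraries held 24158699 to 54795718 counted read pairs, and 16363 genes with a mean of at least 10 counts were tested. The Foxp3 transcript did not pass the test (log2 fold change 0.07, SE 0.25), and the degron acts on the protein. Treg markers were abundant, at summed normalized counts (counts divided by DESeq2 size factors) of 114789 to 134555 in R26-WT and 112472 to 130040 in R26-TIR1(F74G), and none of the 6 was called by DESeq2, where 2 (Il2ra and Cd4) were with 1 surrogate variable in the fit. The B cell receptor component Cd79b was at 661 to 1091 normalized counts in R26-WT and 525 to 972 in R26-TIR1(F74G) and was not called. Summed CD8 and NK markers were at 1190 to 1819 and 1084 to 1381, nearly all of it Cd8b1, at 1163 to 1812 in R26-WT and 1076 to 1337 in R26-TIR1(F74G), with Cd8a at 0 to 41 raw counts. Myeloid markers (4 genes) summed to at most 44.4 and erythroid markers (3 genes) to at most 6.48, with 1 gene of the CD8 and NK list, 1 of the myeloid list and 1 of the erythroid list at 0 in all libraries. In bulk libraries, fewer cells of a type and less RNA per cell cannot be told apart. Of 16 proliferation genes, 13 were called higher in R26-TIR1(F74G) by DESeq2 and 6 by edgeR. One of them, Stmn1, a regulator of microtubules, rose from 214 ± 18.1 (SD, n = 4) to 527 ± 77.6 normalized counts (SD, n = 6; DESeq2 adjusted p 1.31e-14).

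No mitochondrial ribosomal protein gene passed the test between R26-TIR1(F74G) and R26-WT Treg cells. Of the 78 members, 77 were tested and DESeq2 called 0, where it called 284 of all 16363 genes (1.74%) at an adjusted p under 0.05. The edgeR quasi-likelihood test also called 0, against 61 genes (0.373%), and limma voom called 0. At an unadjusted p under 0.05 the count was 0 by DESeq2, 0 by edgeR and 1 by voom (Mrps31), where 6.86% of all genes had such a DESeq2 p. The normalized counts of the groups overlapped for all 77 members, and did not overlap for 388 of all genes (2.37%). The smallest DESeq2 p was 0.112 (adjusted p 0.99996).

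The intervals of the members come from the main DESeq2 fit. In it the 95% interval of the fold change held 0 on the log2 scale for all 77 members. It also lay within 1.5-fold in either direction (a log2 value of 0.585) for all 77. The lowest bound was −0.578, for Mrpl43, close to the 1.5-fold line, and the highest 0.54, for Mrpl23. Intervals under other settings were not compared with 1.5-fold. The log2 fold change of Mrpl43 was −0.194 with edgeR, against −0.186 in the main fit. Standard errors of the log2 fold change ran from 0.098 to 0.23 with a median of 0.16, against a median of 0.20 over all genes. Fitted log2 fold changes ran from −0.20 to 0.14.

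**Figure D1:**
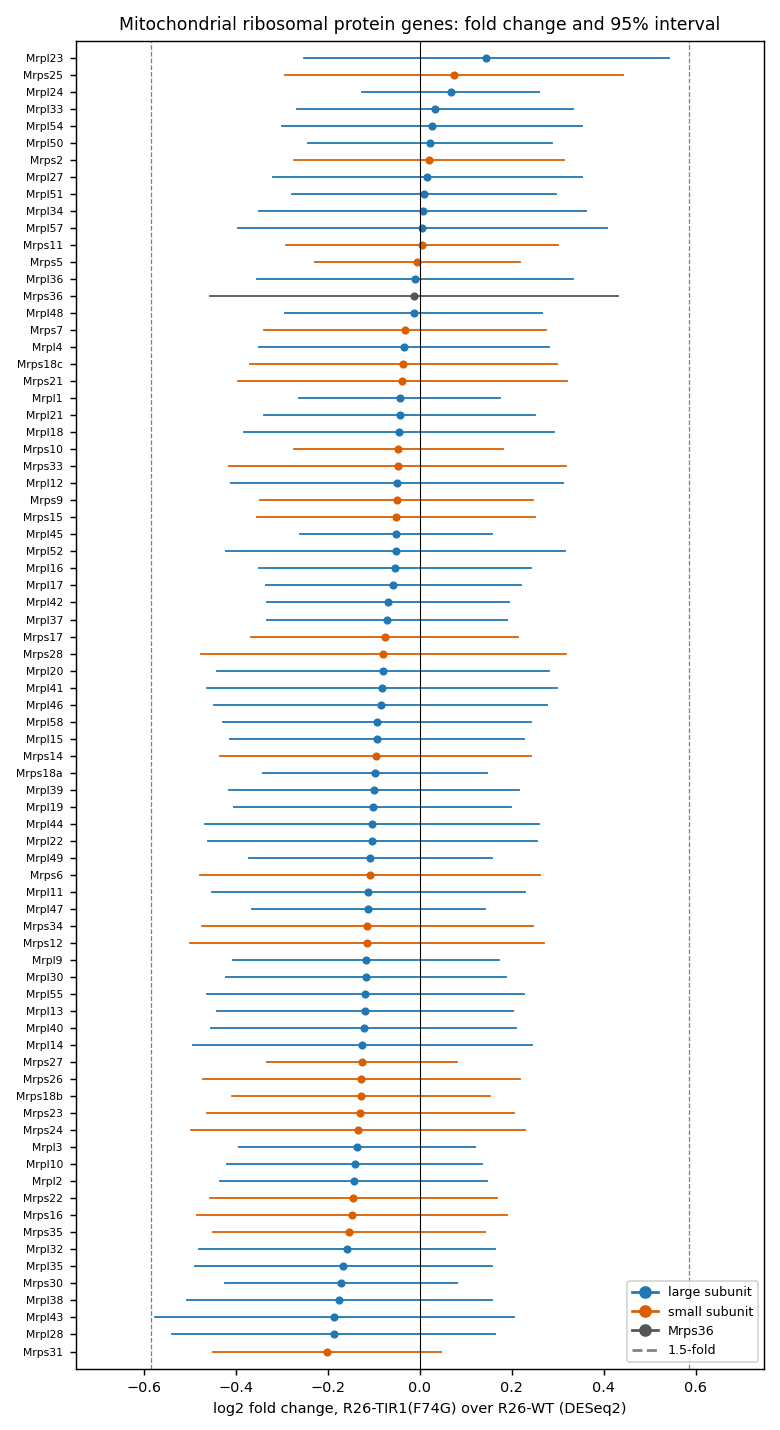
Log2 fold change of each of the 77 tested genes, R26-TIR1(F74G) over R26-WT, with its 95% interval from DESeq2 (blue, large subunit; orange, small subunit; grey, Mrps36). In this fit every interval crosses 0 and stays inside the dashed lines at 1.5-fold, that of Mrpl43 only just. Of the 77 points, 65 lie to the left of 0.

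More members had fitted values below 0 than above. The count was 65 lower and 12 higher, or 84.4% lower, where 49.9% of all genes were lower, and the median log2 fold change was −0.086 against 0.00063 over all genes. Members share libraries and moved together, so the count does not rest on independent values. It turned to 47 higher and 30 lower (median 0.015) when R26-WT replicate 3 was left out, and to 43 higher and 34 lower (median 0.0069) with 1 surrogate variable in the fit. Without R26-WT replicate 4 it was 24 higher and 53 lower (median −0.025), and without R26-TIR1(F74G) replicate 7 it was 29 higher and 48 lower (median −0.029). With limma voom it was 1 higher and 76 lower (median −0.13). Leaving out some other libraries raised the count of lower members, to 74 without R26-WT replicate 2 (median −0.18), 73 without R26-WT replicate 1 (median −0.15), 74 without R26-TIR1(F74G) replicate 9 (median −0.13) and 72 without R26-TIR1(F74G) replicate 6 (median −0.13). The count was 62 without R26-TIR1(F74G) replicate 5 (median −0.075), 63 without replicate 10 (median −0.083) and 66 without replicate 8 (median −0.069).

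The lower side was led by Mrps31, a small subunit protein found only in mitochondria. Its normalized counts in R26-WT replicates 1 to 4 were 1287, 1274, 1633 and 1608, and in the 6 R26-TIR1(F74G) libraries the lowest, median and highest were 1140, 1245 and 1478. The R26-TIR1(F74G) values thus spanned those of R26-WT replicates 1 and 2 and stayed below replicates 3 and 4. The log2 fold change was −0.20 (SE 0.13, 95% interval −0.45 to 0.047, DESeq2 p 0.112). Mrps30, which despite its name sits in the large subunit, had 2750.2, 2236, 3245 and 2802 normalized counts in R26-WT and 2155 to 2699 in R26-TIR1(F74G) (median 2442), with a log2 fold change of −0.17 (SE 0.13). The lowest of its R26-WT libraries was close to the lowest R26-TIR1(F74G) value, and the log2 fold change was −0.083 without R26-WT replicate 3 and −0.26 without replicate 2. Mrps27, a pentatricopeptide repeat protein of the small subunit whose promoter is printed above, had 1036, 1001, 1231 and 1150.1 in R26-WT and 922 to 1104 in R26-TIR1(F74G) (median 999), a log2 fold change of −0.13 (SE 0.11) that was −0.069 without R26-WT replicate 3.

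The next in order were Mrpl28, Mrpl3 and Mrpl38, all of the large subunit. Mrpl28, a homologue of a bacterial large subunit protein, had 2739, 2758, 3915 and 3680.2 normalized counts in R26-WT and 2194 to 3569 in R26-TIR1(F74G) (median 2816), with a log2 fold change of −0.19 (SE 0.18). Mrpl3, a conserved protein of the ribosome core, had 2792, 2819, 3860.1 and 3365 in R26-WT and 2462 to 3153 in R26-TIR1(F74G) (median 2997), with a log2 fold change of −0.14 (SE 0.13). In both genes R26-WT replicates 3 and 4 were the high ones and replicates 1 and 2 lay within the R26-TIR1(F74G) range. Without R26-WT replicate 3 the log2 fold change was −0.089 for Mrpl28 and −0.035 for Mrpl3, and without R26-TIR1(F74G) replicate 7 it was −0.12 for Mrpl28. Mrpl38, a mitochondria-specific protein of the large subunit, had 2855, 2560.05, 3195 and 3712 in R26-WT and 1920.2 to 3289 in R26-TIR1(F74G) (median 2793), with a log2 fold change of −0.18 (SE 0.17). Only its replicate 4 value was above all R26-TIR1(F74G) libraries, and the log2 fold change was −0.072 without it and −0.093 without R26-TIR1(F74G) replicate 7.

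On the higher side, the fitted values reached 0.14. Mrpl23, the homologue of a protein near the exit of the peptide tunnel, had 362, 350.3, 462 and 379.7 normalized counts in R26-WT and 304 to 608 in R26-TIR1(F74G) (median 420.1), a log2 fold change of 0.14 (SE 0.20, 95% interval −0.25 to 0.54). Its range in R26-TIR1(F74G) enclosed all 4 R26-WT values, and the log2 fold change was 0.019 without R26-TIR1(F74G) replicate 7, 0.23 without replicate 5 and 0.24 without R26-WT replicate 3. Mrpl24, another conserved large subunit protein, had 3039, 3462, 3310 and 3590 in R26-WT and 3185 to 3799 in R26-TIR1(F74G) (median 3533). It had the smallest standard error of the members and a log2 fold change of 0.067 (SE 0.098, 95% interval −0.13 to 0.26), or 0.023 without R26-WT replicate 1 and 0.10 without replicate 4. Mrps25, a mitochondria-specific protein of the small subunit, had 979, 964, 1140.2 and 1284 in R26-WT and 842 to 1467 in R26-TIR1(F74G) (median 1174), with a log2 fold change of 0.074 (SE 0.19). Mrpl33, Mrpl54 and Mrpl50 completed the 6 higher members named by p, at log2 fold changes of 0.033 (SE 0.15), 0.026 (SE 0.17) and 0.021 (SE 0.14).

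None of the members with known special roles passed the test. Mrpl12, the stalk protein that recruits translation factors and that has also been described as a partner of the mitochondrial RNA polymerase, had 2964, 2800.1, 4408 and 3864 normalized counts in R26-WT and 2570.2 to 4232 in R26-TIR1(F74G) (median 3191). Its log2 fold change was −0.050 (SE 0.18, 95% interval −0.41 to 0.31). Mrpl45, which helps to hold the ribosome at the inner membrane, had 1781, 1776, 2148 and 2103 in R26-WT and 1670.2 to 2020.1 in R26-TIR1(F74G) (median 1918), a log2 fold change of −0.052 (SE 0.11) that ran from −0.094 without R26-WT replicate 1 or 2 to −0.013 without replicate 4 and −0.0022 without replicate 3, and was −0.020 without R26-TIR1(F74G) replicate 7. For both, R26-WT replicates 3 and 4 were higher than replicates 1 and 2 by more than the group means differed. Mrpl58, a ribosome component with the catalytic motif of a peptide release factor, was at −0.093 (SE 0.17) on the log2 scale. Mrps12, a protein of the decoding centre, had 1824, 1744, 2780.2 and 2440 normalized counts in R26-WT and 1420.3 to 2500 in R26-TIR1(F74G) (median 2002), with a log2 fold change of −0.12 (SE 0.20). Mrps5, a conserved protein of the decoding side of the small subunit, had 1875, 1744, 2256 and 1871 in R26-WT and 1742 to 2100 in R26-TIR1(F74G) (median 1922), and its log2 fold change of −0.0057 (SE 0.11, 95% interval −0.23 to 0.22) was among the closest to 0.

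Mammals have 3 versions of the Mrps18 protein, encoded by separate genes and placed at different sites of the ribosome. Mrps18a, a large subunit protein, was at a log2 fold change of −0.098 (SE 0.12), Mrps18b at −0.13 (SE 0.14) and Mrps18c, the closest to the bacterial protein, at −0.036 (SE 0.17). None passed the test. Mrps18a was at −0.16 without R26-WT replicate 1 or 2 and at −0.031 and −0.030 without replicates 3 and 4, and Mrps18b at −0.22 without R26-WT replicate 2 and −0.014 without replicate 3. Mrps36 carries the family name but its product is now known as a subunit of the 2-oxoglutarate dehydrogenase complex of the citric acid cycle. It had 118, 105, 149.75 and 149.7 normalized counts in R26-WT and 92.6 to 173 in R26-TIR1(F74G) (median 128), the lowest mean normalized count of the tested members and the largest standard error (log2 fold change −0.012, SE 0.23).

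Large and small subunit genes had nearly the same values. Of 51 large subunit members 50 were tested, with 9 higher and 41 lower and a median log2 fold change of −0.089. All 26 small subunit members were tested, with 3 higher and 23 lower and a median of −0.088. By origin, the 46 members with a bacterial homologue had a median of −0.078 (7 higher, 39 lower), and the 30 tested of 31 mitochondria-specific members a median of −0.099 (5 higher, 25 lower). The difference between classes was not tested.

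The libraries differed from each other far more than the groups did, and most members were high or low in the same libraries. For each gene, the log2 normalized count in a library was set against the mean of that gene over the 10 libraries. In R26-WT replicates 1 to 4 the median of this deviation over the 77 members was −0.12, −0.24, 0.32 and 0.21. In R26-TIR1(F74G) replicates 5 to 10 it was −0.095, 0.17, −0.33, −0.069, 0.19 and −0.037. The libraries thus spanned 0.64 on the log2 scale (1.56-fold), with a range of 0.56 within R26-WT and of 0.51 within R26-TIR1(F74G). The group means, 0.041 ± 0.27 (SD, n = 4) and −0.029 ± 0.19 (SD, n = 6), differed by −0.070, less than either SD.

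**Figure D2:**
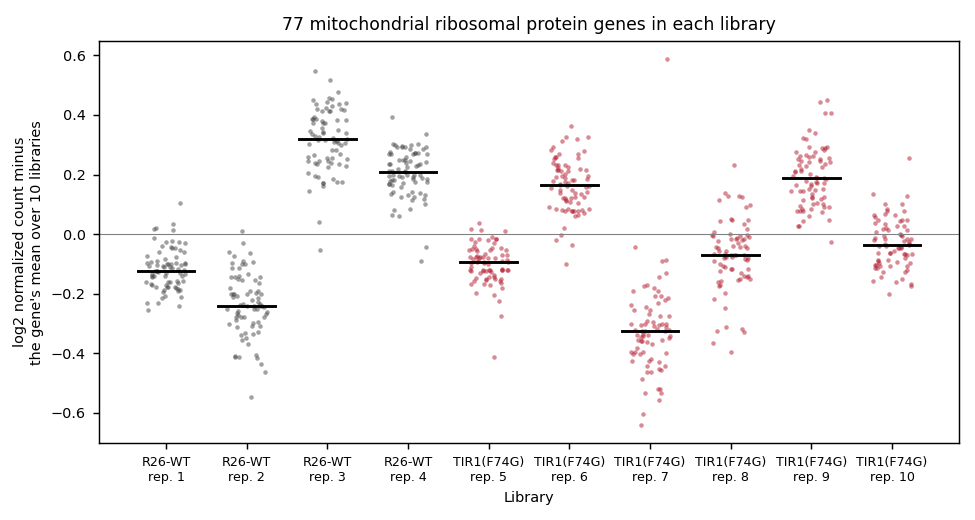
Log2 normalized count of each of the 77 genes minus that gene's mean over the 10 libraries (points), with the median in each library (bars). R26-WT replicates 3 and 4 lie high at medians of 0.32 and 0.21, R26-TIR1(F74G) replicate 7 lies low at −0.33, and both groups hold high and low libraries.

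Counted by gene, 76 of the 77 members were above their own mean in R26-WT replicate 3, 75 in replicate 4, 5 in replicate 1 and 1 in replicate 2. In R26-TIR1(F74G), 76 were above it in replicate 9, 73 in replicate 6, 26 in replicate 10, 16 in replicate 8, 4 in replicate 5 and 1 in replicate 7. R26-WT replicate 3 held the highest value of 54 members, where it held the highest value of 20.2% of all genes. R26-TIR1(F74G) replicate 7 held the lowest value of 55 members, where it held the lowest of 23.4% of all genes. For 33 members the highest and next highest libraries were R26-WT replicates 3 and 4.

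A few members left this pattern. Mrpl23 was highest in R26-TIR1(F74G) replicate 7, at 608 normalized counts, and was the only member above its own mean there. Mrpl24 was the only member below its own mean in R26-WT replicate 3 and the only one above it in replicate 2, and its values varied least, with 1.25 between the highest and the lowest library. Mrps31 alone was below its mean in R26-TIR1(F74G) replicate 9, and Mrps5 and Mrpl23 were below theirs in R26-WT replicate 4. Over all members the ratio of the highest to the lowest library had a median of 1.64 and reached 2.04. The within-group SD of the log2 normalized count had a median of 0.27 over members in R26-WT and 0.21 in R26-TIR1(F74G), where the medians over all genes were 0.31 and 0.27.

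Genes for cytosolic ribosomal proteins and for nuclear-encoded oxidative phosphorylation subunits were high and low in the same libraries as the members. In R26-WT replicate 3 they stood at 0.37 and 0.32, and in R26-TIR1(F74G) replicate 7 at −0.42 and −0.37. The proliferation list did otherwise. Its median lay between −1.45 and −0.43 in R26-WT and between 0.19 and 1.13 in R26-TIR1(F74G), so that the groups did not overlap, and it was highest in R26-TIR1(F74G) replicate 7, where the mitochondrial ribosomal genes were lowest. Total counts, RNA integrity per library and the share of cycling cells were not separated, and their part in the order of libraries was not tested. When the trend of each library with gene length was removed, the medians of the members were −0.085, −0.19, 0.26 and 0.17 in R26-WT and −0.27 in R26-TIR1(F74G) replicate 7. Without the removal they were −0.12, −0.24, 0.32, 0.21 and −0.33, so that these medians shrank but kept their signs. In R26-TIR1(F74G) replicates 5 and 8 the median did not shrink, at −0.095 and −0.083 with the removal and −0.095 and −0.069 without it.

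**Figure D3:**
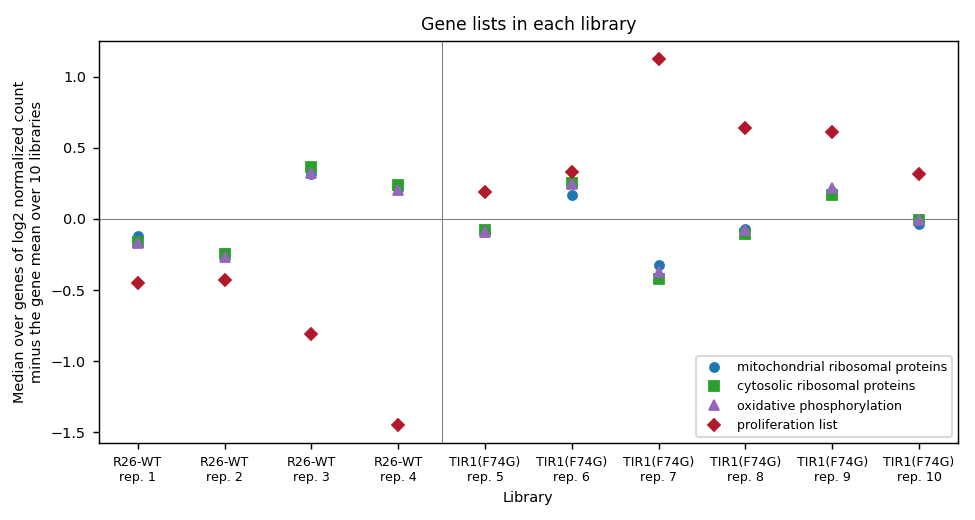
Median deviation of 4 gene lists in each library, on the log2 scale, relative to each gene's mean over the 10 libraries. Mitochondrial ribosomal, cytosolic ribosomal and oxidative phosphorylation genes stand close together in each library, while the proliferation list separates the groups, at −0.43 or below in R26-WT and 0.19 or above in R26-TIR1(F74G).

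As a share of all counted read pairs, the members together took 0.355%, 0.324%, 0.483% and 0.449% in R26-WT replicates 1 to 4, and between 0.305% and 0.448% in the other group (median 0.381%). The means were 0.403% ± 0.0753 (SD, n = 4) and 0.385% ± 0.0505 (SD, n = 6). The lowest and the highest R26-WT libraries lay farther apart than the means of the groups.

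Although their products form complexes with mostly 1 copy of each protein per ribosome, the transcripts differed widely in level. In normalized counts per kilobase of annotated exon, the tested members ran from 84.5 to 2721, a 32.2-fold range, with a median of 837 and quartiles of 438 and 1458. The median over all tested genes was 176 on the same scale. The highest levels were those of Mrpl18 (2721), Mrpl41 (2623) and Mrpl34 (2373), and the lowest those of Mrpl23 (84.5), Mrps36 (102) and Mrpl48 (135). The length counts every annotated exon base, whether or not the transcripts of these cells use it. In R26-WT, Mrpl48 was at 1109 ± 172 normalized counts (SD, n = 4), beside 135 per kilobase over all libraries. Median levels per kilobase were 946 for large and 698 for small subunit genes.

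**Figure D4:**
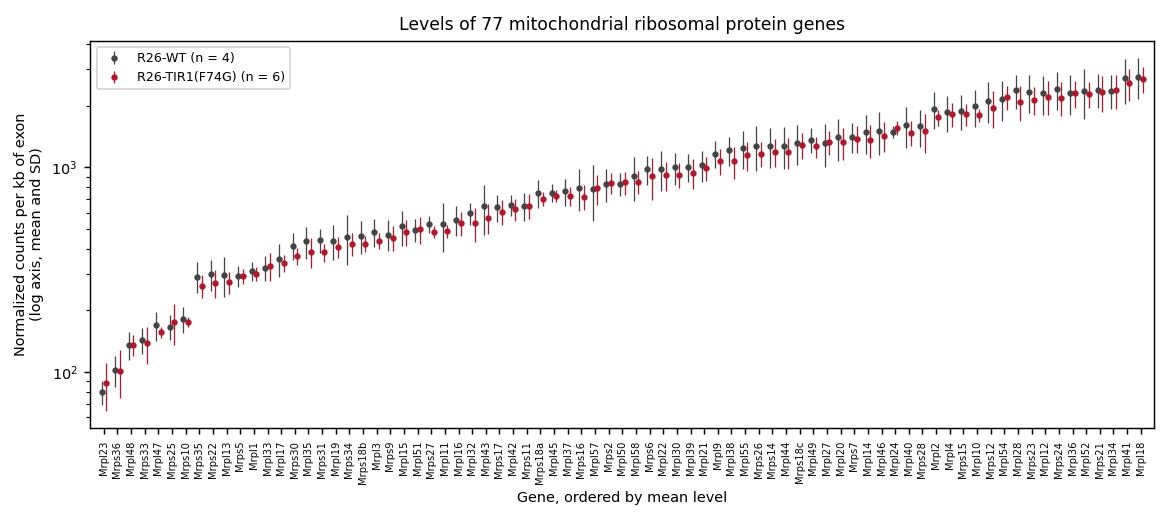
Normalized counts per kilobase of exon (log axis) of the 77 tested genes, ordered by level, with the mean and SD of 4 R26-WT and 6 R26-TIR1(F74G) libraries. Levels run from 84.5 to 2721, and the error bars of the groups overlap for every gene.

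The most abundant transcripts per kilobase had the same high libraries in R26-WT. Mrpl18, whose bacterial homologue binds the smallest ribosomal RNA, had 3299, 2949.7, 4646 and 4602 normalized counts in R26-WT and 3030.3 to 4414 in R26-TIR1(F74G) (median 3671), with a log2 fold change of −0.045 (SE 0.17). Mrpl41, a mitochondria-specific protein of the large subunit, had 1997, 1820.2, 3062 and 2761 in R26-WT and 1579.5 to 2799 in R26-TIR1(F74G) (median 2241), with a log2 fold change of −0.083 (SE 0.19). Mrpl34, a small conserved protein, had 1272, 1143, 1725 and 1608 in R26-WT and 1079 to 1773 in R26-TIR1(F74G) (median 1374), with a log2 fold change of 0.0056 (SE 0.18). In all 3 genes, R26-WT replicates 1 and 2 were below replicates 3 and 4.

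The members lie on 17 chromosomes, with 11 on chromosome 11 and 8 on chromosome 17 (GRCm39). Exons of 33 members overlap another annotated gene, and read pairs shared between genes were not counted, so that the counts of these members can understate their transcripts. More than 20% of the exon bases were shared in 10 members, from 23.2% in Mrps18c to 88.0% in Mrpl53. Mrpl53 (chromosome 6, 83086021 to 83086920, plus strand) had 0 to 2 raw counts per library and is the member that was not tested. Its overlapping gene on the same strand, Gm42688, had 73 to 187 raw counts, so the low count of Mrpl53 says little about its transcript. Mrps34 (77.8%, mostly with Mapk8ip3 on the opposite strand), Mrps25 (69.8%, with Nr2c2), Mrpl19 (36%, with Gcfc2) and Mrpl43 (33.4%, with Twnk) follow. The counts used no strand option, and antisense reads cannot be told apart from sense reads.

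Copies elsewhere in the genome limit other members. The share of 50-base stretches of a member's exons that also occur elsewhere in GRCm39 had a median of 0.924% and was above 20% in 7 members, led by Mrps36 (44.3%), Mrps18b (38.2%) and Mrpl27 (37.3%). Read pairs that map equally well to several places were not counted. The processed copy Mrpl23-ps1 had 1070 to 3489 raw counts per library, and Mrpl23 itself 184 to 657. Per kilobase of annotated exon the copy was at 3580.2 normalized counts and Mrpl23 at 84.5. Its log2 fold change was −0.14 (SE 0.18), opposite in sign to that of Mrpl23, and neither passed the test. The values of Mrpl23 and of its copy are therefore uncertain as measures of the Mrpl23 transcript.

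Many members start next to another gene that is read in the opposite direction. Such a head-to-head partner, with starts within 1000 bases, was found for 34 of 77 members (44.2%), against 21.6% of 16359 tested genes, and 0 of the 34 partners was called by DESeq2. Their log2 fold changes ran from −0.41 (Oaz3, beside Mrpl9) to 0.66 (Ska3, beside Mrpl57). Mrpl46 and Mrps11, a large and a small subunit gene on chromosome 7, are such a pair, with log2 fold changes of −0.086 (SE 0.18) and 0.0047 (SE 0.15). Mrps12 starts 172 bases from Sars2, which encodes the mitochondrial seryl-tRNA synthetase. In R26-WT, Sars2 had a mean of 1203 ± 104 normalized counts (SD, n = 4). The mean in R26-TIR1(F74G) was 1397 ± 111 (SD, n = 6), for a log2 difference of 0.22 (SE 0.11, adjusted p 0.656 by DESeq2), where Mrps12 was at −0.12 (SE 0.20). Ska3, a kinetochore gene, was at 0.66 (SE 0.33, DESeq2 adjusted p 0.696) and Mrpl57 at 0.0048 (SE 0.21). Mrpl36 and Mrpl47 start beside Ndufs6 and Ndufb5, which encode subunits of respiratory complex I, and these partners were at −0.038 (SE 0.18) and −0.056 (SE 0.16).

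The rest of the mitochondrial gene expression machinery had no called gene either, in lists taken from general knowledge but chosen with earlier results of these data known. All 5 genes for ribosomal proteins under other names were tested, with 1 higher and 4 lower (median log2 fold change −0.065). The smallest p among them was that of Dap3, a GTP-binding small subunit protein, at −0.13 (SE 0.13). Of 26 genes for ribosome assembly and rRNA modification, 8 were higher and 18 lower (median −0.041), and Tfb1m, which methylates the small subunit rRNA, had the smallest p at −0.40 (SE 0.22, DESeq2 adjusted p 0.893). The 15 translation factors were split 7 to 8, with Gfm2, a factor for ribosome recycling, at 0.18 (SE 0.13). Among 20 aminoacyl-tRNA synthetases 8 were higher and 12 lower (median −0.025).

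Genes upstream of the ribosome also had no DESeq2 calls, while the balance of higher and lower genes differed between lists. Of 16 genes for mitochondrial transcription and RNA processing 7 were higher and 9 lower (median −0.0024), with the elongation factor Tefm at −0.28 (SE 0.16). Of 8 genes for mitochondrial DNA replication 2 were higher and 6 lower (median −0.078), with the exonuclease Mgme1 at −0.17 (SE 0.13). Of 10 regulators of mitochondrial biogenesis 9 were tested, with 5 higher and 4 lower (median 0.047), and Gabpb1, which encodes a subunit of the ETS factor GABP, was at −0.16 (SE 0.099). DESeq2 called 0 genes in each of these lists. At an unadjusted p under 0.05 there was 1 gene, Sars2, which was called with 1 surrogate variable in the fit, and edgeR called 0.

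The lists most like the members also held more lower than higher genes, and DESeq2 called none of them. Differences between the lists were not tested. Of 86 tested cytosolic ribosomal protein genes, 68 were lower and 18 higher (median −0.078), and of 79 tested nuclear oxidative phosphorylation genes, 54 were lower and 25 higher (median −0.045), beside −0.086 for the members. Rps13 had the smallest p of the cytosolic list, with 1013 ± 122 normalized counts on average in R26-WT (SD, n = 4), 789 ± 102 on average in R26-TIR1(F74G) (SD, n = 6), and a log2 difference of −0.36 (SE 0.13, adjusted p 0.231 by DESeq2). Transcripts of mitochondrial DNA, the messages that these ribosomes read, held a count of 0 in all 37 rows and all 10 libraries and were not analysed here.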

How the data were processed

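Bulk RNA-seq of Treg cells was analysed for 4 R26-WT and 6 R26-TIR1(F74G) libraries, grouped by the labels. The members and gene lists were chosen with earlier results of these data known. The authors deposited raw counts of read pairs for each gene name, without normalization, which per the file headers came from featureCounts 2.1.1 on GENCODE M30 (GRCm39), with primary alignments, both mates mapped, a mapping quality of at least 30 and no strand option. Methods name STAR and the submitters' processing notes Bowtie2. Per the labels, cDNA was amplified by PCR from little RNA of varied integrity, so counting error is a lower limit.

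Genes averaging at least 10 counts were tested with DESeq2 1.42.0 (R 4.3.3), the tool of the study's methods, with genotype as the only term and Benjamini-Hochberg adjustment over all 16363 genes. Checked alternatives were edgeR 4.0.16 quasi-likelihood, limma 3.58.1 voom with quality weights, TMM scaling, no filter, a mean of at least 50, removal of each library's trend with gene length, 1 surrogate variable (sva 3.50.0) and leaving out each library. Scripts were tested on simulated data. Deviations used log2 of normalized counts plus 1. Intervals are estimates ± 1.96 SE. No pair of libraries of a group agreed within sampling noise (chi-square per degree of freedom 10.3 to 239 in 21 pairs). P-values measure the spread between these mice.

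Members named with their values were the 6 higher and 6 lower with the smallest p, the 3 highest and 3 lowest per kilobase, and 10 with roles of interest. From each other list, the called genes with the smallest p, or otherwise the gene with the smallest p, could be named. The result for 1 marker gene is not reported here. All other members and the head-to-head partners named were chosen after their values were seen.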

Additional observations from a re-analysis of the deposited data

How the results depend on the processing

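No member was called by DESeq2, edgeR or voom, nor in any of 10 fits without a given library, and the calls in the other mitochondrial lists stayed at 0 with edgeR and with the length trend removed. With 1 surrogate variable, 1 synthetase gene (Sars2), 1 cytosolic ribosomal gene (Rps13) and 2 oxidative phosphorylation genes (Uqcr10 and Cox6c) were called, as were 2 of 6 Treg markers (Il2ra and Cd4) and 15 of 16 proliferation genes, against 0 and 13 without it. The calls over all genes were 284 by DESeq2, 61 by edgeR, 80 by voom, 743 with 1 surrogate variable and 187 without R26-WT replicate 4. The tested members had 57 or more raw counts in every library, and the one with the fewest, Mrps36, had the largest standard error (0.23). Over 425 values of the 25 named members under alternatives, 364 kept their sign and 61 reversed, and the cause was not tested. With 1 surrogate variable these were Mrpl18 0.065, Mrpl41 0.043, Mrps36 0.093, Mrpl48 0.058, Mrpl12 0.058, Mrpl58 0.018, Mrps5 0.034, Mrps12 0.0011 and Mrps18c 0.067. With TMM scaling and with edgeR it was Mrpl34 at −0.0018. With the length trend removed these were Mrpl33 −0.046, Mrps36 0.023 and Mrps18c 0.013, and with voom Mrpl23 −0.047, Mrps25 −0.018, Mrpl33 −0.031, Mrpl54 −0.026, Mrpl50 −0.040 and Mrpl34 −0.069. Leaving out a library gave −0.14 to 0.079 for Mrpl12, −0.15 to 0.055 for Mrpl18, −0.036 to 0.10 for Mrpl33, −0.089 to 0.11 for Mrpl34, −0.20 to 0.054 for Mrpl41, −0.095 to 0.073 for Mrpl48, −0.047 to 0.095 for Mrpl50, −0.074 to 0.15 for Mrpl54, −0.21 to 0.053 for Mrpl58, −0.21 to 0.019 for Mrps12, −0.14 to 0.096 for Mrps18c, −0.0044 to 0.16 for Mrps25, −0.11 to 0.071 for Mrps36 and −0.052 to 0.077 for Mrps5. No paired analysis was possible because R26-WT and R26-TIR1(F74G) have no replicate number in common.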

Other observations

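Pseudogene rows of the family, which the rule leaves out, were also counted. In R26-WT, Mrpl48-ps had 350.1 ± 85.3 normalized counts (SD, n = 4), beside 279 ± 71.7 for R26-TIR1(F74G) (SD, n = 6), and the log2 difference was −0.33 (SE 0.23). Mrps36-ps1 was at 178 ± 39.6 and 178 ± 39.9, and per kilobase of exon its mean normalized count was 582, against 102 for Mrps36 itself. Of the 50-base stretches of Mrps36, 44.3% also occur elsewhere in the genome. Both values are therefore uncertain as measures of their transcripts. Mrpl27-ps was at 127 ± 32.5 and 126 ± 26.4. DESeq2 called none of them.

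With the length trend of each library removed, the smallest p of a member, that of Mrps31, was 0.0626 (DESeq2), and with 1 surrogate variable it was 0.0351 (adjusted p 0.309). Without R26-WT replicate 2 the smallest was that of Mrps30, at 0.0334 (adjusted p 0.425), and without R26-TIR1(F74G) replicate 6 that of Mrps31, at 0.0485 (adjusted p 0.702). When each library was left out in turn, the members' median log2 fold change ran from −0.18 to 0.015.

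In 54 groups of 4 to 6 values examined for a library far from the rest (Dixon's test), 0 had one, where chance gives 2.7 on average. The groups share the same 10 libraries, and with 4 to 6 values the test finds only large gaps. The result therefore does not show that no library stood apart.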
